A study of Mus musculus with 20 samples.

Results

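The 10 kinases described here are Aurka, Aurkb, Aurkc, Plk1, Plk4, Bub1, Bub1b, Ttk, Nek2 and Cdk1, which were taken by gene symbol from the 34937 Ensembl genes counted in single mouse 8-cell (8C) embryos. They were chosen by symbol with the Ehmt2Mat against Ehmt2Cntr fold changes of these embryos in view, so that their levels and fold changes in that comparison are given as a description, without a test. Ehmt2 encodes G9a, a histone H3 lysine 9 methyltransferase that the oocyte supplies to the embryo. Embryos came from natural matings on a mixed background, were collected at E2.5 if morphologically normal, and were lysed after removal of the zona pellucida. Ehmt2Cntr embryos (n = 9) had Ehmt2F/+ mothers and Ehmt2Mat embryos (n = 10) had Ehmt2F/- mothers, with an Ehmt2+/- father in both groups. Mothers of both groups carried Zp3-Cre, a Cre driver that is active in the growing oocyte. The zygotic genotype was +/+ in 6 and +/- in 3 Ehmt2Cntr embryos. A functional paternal copy was present in 5 Ehmt2Mat embryos (+/-, named Ehmt2M/+) and absent from 5 (-/-, named Ehmt2M/Z). Each embryo is 1 library, and the labels give neither its mother nor its litter, so that a shared mother and the maternal genotype cannot be told apart. The embryo labelled control 4 was not analysed here.

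Mitotic kinases drive a cell through division in a fixed order. CDK1 with its cyclins starts mitosis, Aurora A and PLK1 build the centrosomes and the spindle poles, Aurora B and C work at the inner centromere, and BUB1, BUBR1 and MPS1 hold back anaphase until every kinetochore is attached. The anaphase-promoting complex (APC/C) then marks cyclins and several of these kinases for destruction. Early mouse blastomeres divide at first without centrioles and use stored as well as newly made transcripts, and Aurora C is known mainly from germ cells and early embryos.

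The labelled identity of the embryos was checked on marker genes. The summed level of 7 oocyte and embryo markers was between 241 and 606 CPM (the count of a gene relative to the library size, which was scaled by TMM) in Ehmt2Cntr and between 141 and 398 CPM in Ehmt2Mat embryos, with Pou5f1 the highest. Total counts were 12985149 to 30053248 in Ehmt2Cntr and 8231646 to 30602434 in Ehmt2Mat embryos. Mitochondrial genes took 6.47 to 20.4% and 8.03 to 21.7% of them. A level that rests on 3 counts was between 0.0998 and 0.231 CPM in Ehmt2Cntr and between 0.098 and 0.364 CPM in Ehmt2Mat embryos. Ehmt2 had 141 ± 59.7 CPM (SD, n = 9) in Ehmt2Cntr and 102 ± 32.7 CPM (SD, n = 10) in Ehmt2Mat embryos (log2 fold change −0.47, SE 0.24, edgeR quasi-likelihood test, adjusted p = 0.233). Reads remained on the gene in every Ehmt2Mat embryo, and exons were not counted apart, so that these counts do not check the deletion.

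Some libraries also held transcripts of maternal tissue. The oviduct markers Ovgp1, Krt8, Pax8 and Foxj1 summed to 0.723 to 399 CPM in Ehmt2Cntr (median 14.7) and to 14.4 to 2868 CPM in Ehmt2Mat embryos (median 107), most of it Ovgp1, the oviductal glycoprotein, while Krt8 is also expressed by embryos. All 4 had counts in both groups, and 1 of them in every Ehmt2Cntr embryo against 2 in every Ehmt2Mat embryo. Levels over 300 CPM were found in 1 Ehmt2Cntr embryo (10) and in 4 Ehmt2Mat embryos (1, 2, 3 and 4). The 5 mesenchyme markers reached 97.3 CPM in Ehmt2Cntr and 192 CPM in Ehmt2Mat embryos, led by Dcn, a matrix proteoglycan. The 5 follicle markers reached 0.127 and 40.1 CPM, with Amh, Foxl2 and Fshr at 0 counts in every embryo, and the 5 blood markers reached 8.37 and 9.33 CPM. The 5 embryos over 300 CPM are called the embryos with oviduct transcripts below, although the others held some too. Results are also given without these 5 embryos where this changes them, a choice made after the data were seen. The part of these transcripts in the results below was not tested beyond that.

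The promoters of cell cycle genes often carry a pair of short elements, the cell cycle genes homology region (CHR) and CCAAT boxes. The CHR is bound by MuvB complexes, among them DREAM, which silences G2 and M phase genes in resting cells. CCAAT boxes are bound by NF-Y. The letters TTTGAA (CHR) and CCAAT were searched on both strands in the RefSeq windows (GRCm38.p6) from 250 bases before to 50 bases after each start site. A window was found for 9 of the 10 kinases, all except Aurkb. TTTGAA was in 5 of these 9 windows and in 17.9% of all 32851 windows, and CCAAT was in 8 of 9 windows, all except that of Plk4, and in 37.4% of all windows. No CHR match overlapped a CCAAT match in the windows of the kinases. The CHR matches of the 5 kinases are shown with up to 10 bases on each side, read along the strand of the gene, with the match in capitals. TTCAAA is TTTGAA on the opposite strand.
Aurka, chr2:172370523-172370548, minus strand: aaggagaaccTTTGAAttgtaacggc
Plk1, chr7:122159455-122159480, plus strand: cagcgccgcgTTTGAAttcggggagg
Bub1b, chr2:118598241-118598260, plus strand: agacgttaaaTTTGAAactt
Ttk, chr9:83834686-83834711, plus strand: gcggggaaatTTCAAAcgtgtttccg
Cdk1 distal, chr10:69352968-69352993, minus strand: gattggctccTTTGAAcgtctacgtg
Cdk1 proximal, chr10:69352912-69352937, minus strand: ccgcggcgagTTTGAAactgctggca

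Nek2 and Bub1, the kinases with the second highest and the lowest fold change in Ehmt2Mat embryos, had CCAAT matches and no TTTGAA in their windows, while Aurka and Cdk1, which were fitted in opposite directions, had both. The 100 bases before the RefSeq start site of these 4 genes are shown 5′ to 3′ along the strand of the gene, and capitals mark CCAAT or TTTGAA on either strand.
Aurka, chr2:172370571-172370670, minus strand: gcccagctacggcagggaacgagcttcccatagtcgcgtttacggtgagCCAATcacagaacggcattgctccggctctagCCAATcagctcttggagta
Nek2, chr1:191821373-191821472, plus strand: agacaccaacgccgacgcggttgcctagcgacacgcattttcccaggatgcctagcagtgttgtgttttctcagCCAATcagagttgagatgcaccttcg
Bub1, chr2:127831860-127831959, minus strand: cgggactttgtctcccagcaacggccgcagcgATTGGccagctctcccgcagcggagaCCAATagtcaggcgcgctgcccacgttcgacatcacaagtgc
Cdk1, chr10:69352913-69353012, minus strand: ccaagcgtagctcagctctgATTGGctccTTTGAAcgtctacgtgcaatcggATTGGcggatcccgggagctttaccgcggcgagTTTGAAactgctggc
In the promoter of Aurka the CCAAT matches began 51 and 19 bases before the start site and the CHR match began at base 33 of the transcript. The RefSeq start sites differ from the Ensembl gene ends that are given with each kinase below. By the Ensembl ends, parts of the stretches of Nek2, Bub1 and Cdk1 lie inside the gene, including the CCAAT match of Nek2 and the proximal CHR match of Cdk1, and the CHR match of Aurka spans the start of the gene. These letters are a description of the windows and say nothing about binding in these embryos.

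Aurka (chr2:172356190-172370535, minus strand), the kinase of centrosome maturation and spindle poles, was the kinase with the largest difference between the groups. Its level in Ehmt2Cntr embryos was 228 CPM at the lowest, 317 CPM at the median and 503 CPM at the highest (317 ± 87.7 CPM, SD, n = 9). In Ehmt2Mat embryos it was 614 CPM at the lowest, 764 CPM at the median and 1288 CPM at the highest (814 ± 203 CPM, SD, n = 10). Every Ehmt2Mat embryo was above every Ehmt2Cntr embryo. The log2 fold change was 1.36 (SE 0.18), or 2.57-fold higher. Among the 11754 genes tested, 40 (0.34%) were higher in this way with no overlap, and 21 (0.179%) were lower. The highest value came from Ehmt2Mat embryo 9, at 1288 CPM, and the next embryo had 965 CPM. A level is a share of the counts of a whole embryo, so that a change in every cell and a change in the share of cells that hold the transcript cannot be told apart.

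Aurka was high in Ehmt2Mat embryos both above and below 300 CPM of oviduct markers. In the 6 Ehmt2Mat embryos with less than 300 CPM of oviduct markers (14.4 to 134 CPM) Aurka was between 614 and 1288 CPM, and in the other 4 it was between 753 and 965 CPM. The 1 Ehmt2Cntr embryo over that level had 327 CPM of Aurka. Without these 5 embryos the log2 fold change was 1.33 (SE 0.22). The embryos kept still differed in oviduct markers, with up to 134 CPM in Ehmt2Mat and up to 30.5 CPM in Ehmt2Cntr. Between embryos of the zygotic genotype +/- alone, 5 Ehmt2Mat and 3 Ehmt2Cntr, the log2 fold change of Aurka was 1.31 (SE 0.28). In that fit no kinase and 1 gene in all passed the threshold.

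**Figure D1:**
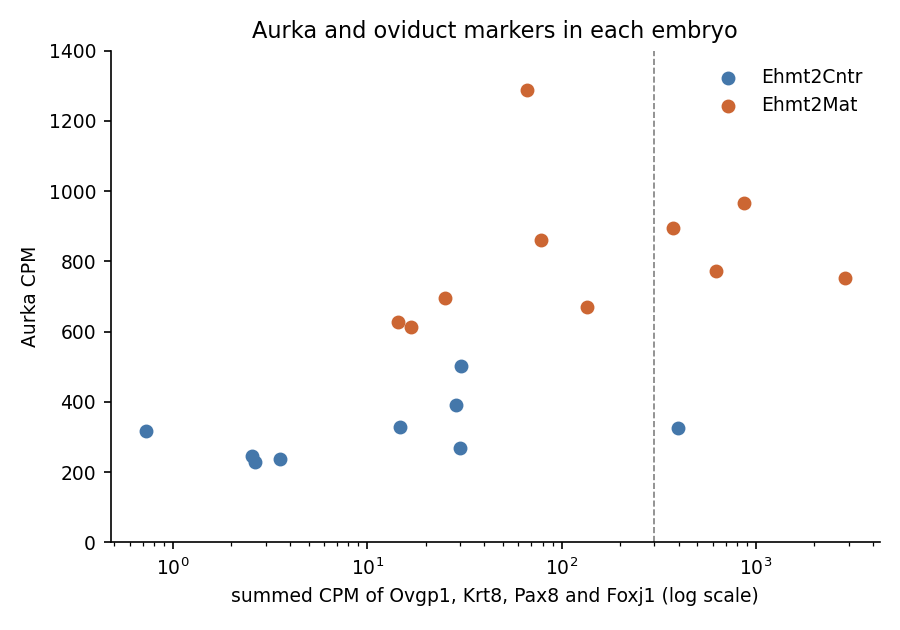
Aurka level (CPM) against the summed level of 4 oviduct markers (CPM, log scale) in each of 9 Ehmt2Cntr and 10 Ehmt2Mat embryos, with a dashed line at 300 CPM. The Ehmt2Mat embryos lie at 614 CPM of Aurka or above on both sides of the line, and the Ehmt2Cntr embryos at 503 CPM or below.

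The other Aurora kinases gave smaller or less certain values. Aurkb (chr11:69045647-69051664, plus strand), the catalytic subunit of the chromosomal passenger complex, had 54.9, 146 and 324 CPM at the lowest, median and highest in Ehmt2Cntr and 76.9, 147 and 192 CPM in Ehmt2Mat embryos. The Ehmt2Mat values lay inside the range of the Ehmt2Cntr values, and the log2 fold change was −0.11 (SE 0.26). Aurkc (chr7:6995443-7002945, plus strand), which can take the place of Aurora B in the same complex, had 0.118, 3.68 and 12.9 CPM in Ehmt2Cntr and 2.48, 6.52 and 18 CPM in Ehmt2Mat embryos. Its counts were between 2 and 232 per embryo and the groups overlapped (log2 fold change 0.84, SE 0.58). Of the 50-base windows of the Aurkc transcripts 54.8% also occur in 10 other annotated genes with Gm symbols, so that its counts are uncertain.

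Nek2 (chr1:191821444-191833050, plus strand) encodes a kinase that loosens the linker between centrosomes before mitosis. Its level was 41.3, 121 and 203 CPM at the lowest, median and highest in Ehmt2Cntr and 130, 246 and 339 CPM in Ehmt2Mat embryos. The ranges overlapped, with 8 of 10 Ehmt2Mat embryos above the highest Ehmt2Cntr embryo and all 10 above its median. The log2 fold change was 0.90 (SE 0.24), and 0.81 (SE 0.27) without the 5 embryos with oviduct transcripts, where Nek2 no longer passed the threshold. In the 4 Ehmt2Mat embryos with these transcripts Nek2 was between 213 and 339 CPM and in the other 6 it was between 130 and 273 CPM. The antisense gene Gm38037 shares 298 of its 4516 exon bases, and reads were counted without strand, but the counts given to Gm38037 were at most 4.89% of those of Nek2.

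**Figure D2:**
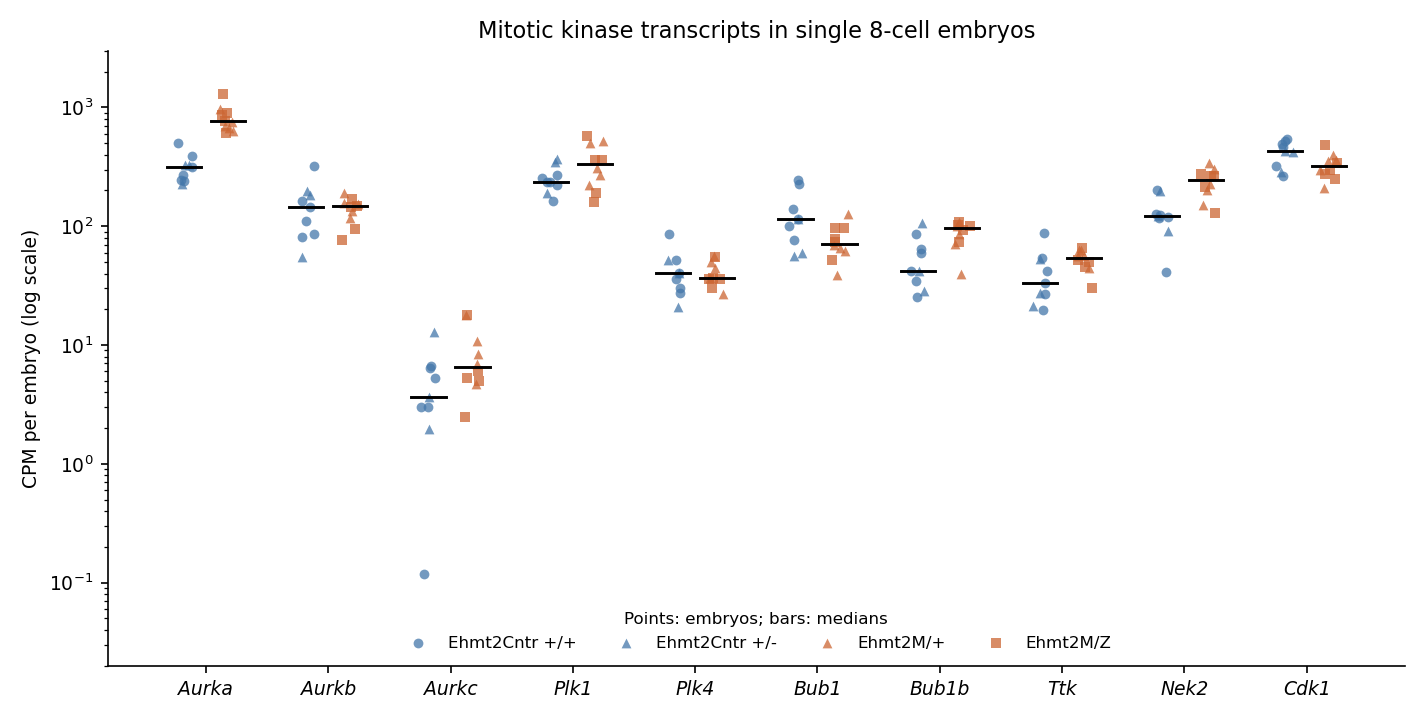
Level of each kinase (CPM, log scale) in 9 Ehmt2Cntr (blue) and 10 Ehmt2Mat (orange) embryos, 1 point per embryo with its shape giving the zygotic genotype, and a bar at each group's median. The groups are apart for Aurka, with 503 CPM as the highest Ehmt2Cntr and 614 CPM as the lowest Ehmt2Mat value, and overlap for the other 9 kinases.

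Plk1 and Plk4 belong to the polo-like family. Plk1 (chr7:122159437-122169875, plus strand), which acts at centrosomes, kinetochores and the midbody, had 162, 236 and 368 CPM at the lowest, median and highest in Ehmt2Cntr and 160, 334 and 580 CPM in Ehmt2Mat embryos. Of the Ehmt2Mat embryos 3 were above the highest Ehmt2Cntr embryo and 1 was below the lowest (log2 fold change 0.46, SE 0.23). Plk1 shares 10.4% of its 50-base windows with Plk-ps1 and Gm44985. Plk4 (chr3:40800019-40816883, plus strand), which starts centriole duplication, had 21, 40 and 86.6 CPM in Ehmt2Cntr and 26.7, 36.5 and 55.6 CPM in Ehmt2Mat embryos, with the second range inside the first (log2 fold change −0.08, SE 0.25).

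The spindle checkpoint kinases were fitted in both directions. Bub1 (chr2:127801122-127831865, minus strand), which marks centromeric histone H2A and recruits shugoshin, had 56.7, 115 and 243 CPM in Ehmt2Cntr and 39, 71.4 and 126 CPM in Ehmt2Mat embryos, of which 9 of 10 were below the Ehmt2Cntr median (log2 fold change −0.73, SE 0.27). Between embryos of the zygotic genotype +/- alone its log2 fold change was −0.11 (SE 0.43). Bub1b (chr2:118598211-118641591, plus strand), which encodes BUBR1 of the mitotic checkpoint complex, had 25.2, 42.1 and 107 CPM in Ehmt2Cntr and 40, 95.9 and 109 CPM in Ehmt2Mat embryos, of which 9 of 10 were above the Ehmt2Cntr median (log2 fold change 0.70, SE 0.26). Its Ehmt2Cntr maximum came from embryo 10, the 1 control with oviduct transcripts. Without the 5 such embryos the log2 fold change of Bub1b was 1.02 (SE 0.28) and passed the threshold. Between +/- embryos alone it was 0.42 (SE 0.49) and did not pass. Ttk (chr9:83834689-83872389, plus strand), which encodes MPS1, had 19.5, 33.6 and 87.2 CPM in Ehmt2Cntr and 30.2, 54 and 66.1 CPM in Ehmt2Mat embryos (log2 fold change 0.37, SE 0.27). The ranges of all 3 genes overlapped between the groups.

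Cdk1 (chr10:69336635-69352938, minus strand), the kinase that cyclins A and B activate at mitotic entry, had 262, 431 and 540 CPM at the lowest, median and highest in Ehmt2Cntr and 210, 321 and 480 CPM in Ehmt2Mat embryos. Of the Ehmt2Mat embryos 9 of 10 were below the Ehmt2Cntr median and 2 were below the lowest Ehmt2Cntr embryo (log2 fold change −0.35, SE 0.17). Without the 5 embryos with oviduct transcripts the log2 fold change was −0.61 (SE 0.19), and between +/- embryos alone it was −0.24 (SE 0.29).

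Over the 10 kinases, which each passed the filter on low counts, 2 were past an adjusted p of 0.05 in the fit over all genes, Aurka and Nek2, both higher in Ehmt2Mat embryos. In that fit 9.35% of 11754 genes were past the threshold, 4.37% higher and 4.98% lower. Because the kinases were picked with this comparison known, nothing is read from their count. The median log2 fold change of the kinases was 0.42 and that of all genes tested was −0.04. Of the kinases 6 of 10 were fitted higher, and of all genes tested 5600 of 11754. Nek2 passed the threshold with a log2 fold change of 0.90 (SE 0.24), while Bub1 (−0.73, SE 0.27) and Bub1b (0.70, SE 0.26) did not pass.

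Levels of the 10 kinases were compared with each other only per length (CPM per kilobase of exons, or RPKM, where the 3′ bias of the cDNA adds an error that was not measured). In Ehmt2Cntr embryos the order by median was Aurka (125 RPKM), Cdk1 (125 RPKM), Plk1 (107 RPKM), Aurkb (49.6 RPKM), Nek2 (26.7 RPKM), Bub1 (26.3 RPKM), Bub1b (9.85 RPKM), Ttk (6.83 RPKM), Plk4 (5.84 RPKM) and Aurkc (3.88 RPKM). Neighbours in this order were not apart beyond their spread at the top: Aurka was above Cdk1 in 5 of 9 embryos and Cdk1 above Plk1 in 5 of 9. Aurkb was above Nek2, Nek2 above Bub1, Ttk above Plk4 and Plk4 above Aurkc in 6 of 9 embryos each, while Bub1 was above Bub1b in 9 of 9. In Ehmt2Mat embryos Aurka (302 RPKM) was above Plk1 (152 RPKM) in 10 of 10 embryos, Plk1 was above Cdk1 (93.2 RPKM) in 9 of 10, and Cdk1 was above Nek2 (54.5 RPKM) in 10 of 10. Below them came Aurkb (49.8 RPKM), Bub1b (22.4 RPKM), Bub1 (16.4 RPKM), Ttk (11 RPKM), Aurkc (6.88 RPKM) and Plk4 (5.32 RPKM), where Bub1b was above Bub1 in 8 of 10 embryos. The pair Bub1 and Bub1b thus stood in opposite order in the 2 groups, and Nek2 stood above Aurkb in 8 of 10 Ehmt2Mat embryos.

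The next comparison did not enter the choice of the kinases: it asks whether a functional paternal Ehmt2 copy altered them when the maternal supply was missing. Aurka had 774, 895, 861, 614 and 1288 CPM in the 5 Ehmt2M/Z embryos and 965, 753, 669, 695 and 628 CPM in the 5 Ehmt2M/+ embryos. The values overlapped, and the highest belonged to Ehmt2M/Z. The log2 fold change was 0.26 (SE 0.22, 95% interval −0.22 to 0.74, edgeR adjusted p = 0.9997, exact two-sided permutation test on log2(CPM + 1), p = 0.294). Nek2 had 213, 264, 273, 130 and 265 CPM in Ehmt2M/Z and 303, 339, 228, 204 and 151 CPM in Ehmt2M/+ embryos (log2 fold change −0.09, SE 0.27, 95% interval −0.67 to 0.48, exact p = 0.754).

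No kinase passed the threshold between Ehmt2M/Z and Ehmt2M/+ embryos, with 0 of 10 at an adjusted p of 0.05 and 0 of 10 at an unadjusted p of 0.05 in edgeR. Over 12195 genes edgeR called 0 (0%), and 2.21% had an unadjusted p under 0.05. DESeq2 called 3 of these genes and no kinase. The log2 fold changes of the kinases ran from −0.39 (Aurkc, SE 0.64) to 0.26 (Aurka). For Aurkc the 95% interval was −1.76 to 0.97, and for Cdk1 it was −0.49 to 0.54, so that differences of up to those sizes could not be told from 0 with 5 embryos on each side. The exact permutation test over 252 splits cannot go below p = 0.00794.

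**Figure D3:**
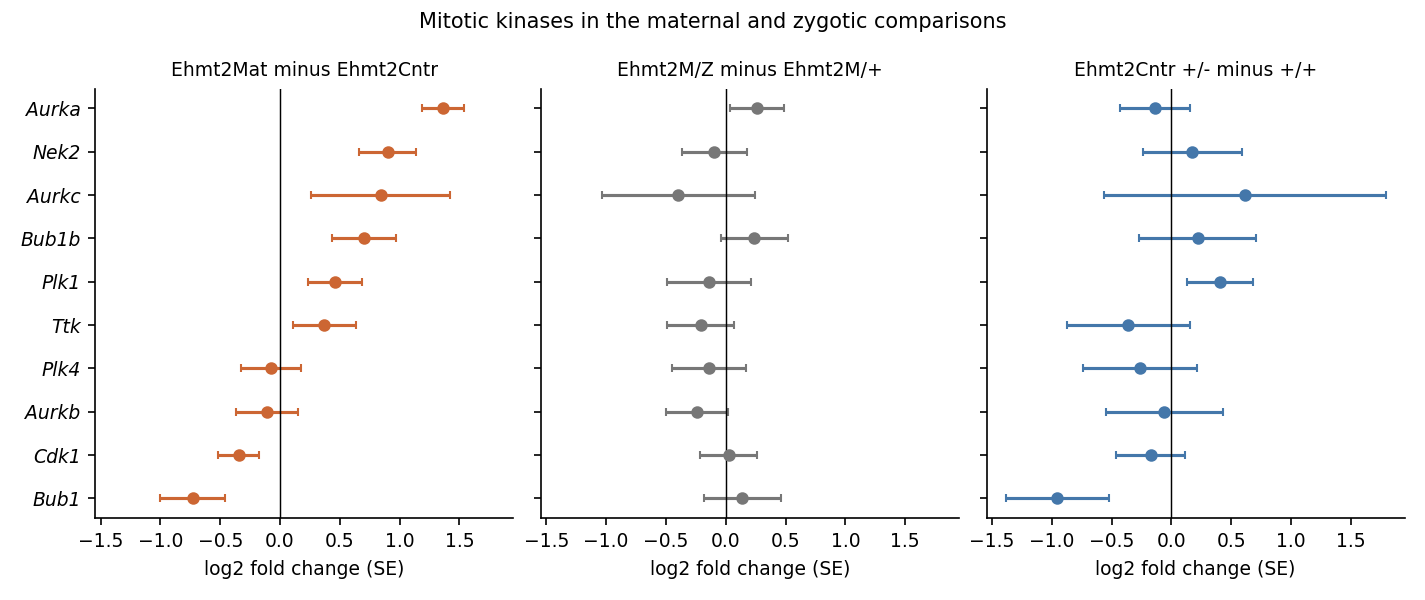
Log2 fold change of each kinase with its SE (bars) in 3 comparisons: Ehmt2Mat minus Ehmt2Cntr (left, n = 10 and 9), Ehmt2M/Z minus Ehmt2M/+ (middle, n = 5 and 5) and Ehmt2Cntr +/- minus +/+ (right, n = 3 and 6). Aurka stands at 1.36 on the left, 0.26 in the middle and −0.14 on the right, and Bub1 at −0.73, 0.14 and −0.96.

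The loss of a zygotic copy was also compared among the Ehmt2Cntr embryos, which inherited G9a from Ehmt2F/+ mothers that carried Zp3-Cre. Aurka had 328, 228 and 327 CPM in the 3 Ehmt2Cntr +/- embryos, and 239, 293 and 503 CPM at the lowest, median and highest in the 6 +/+ embryos (log2 fold change −0.14, SE 0.29, 95% interval −0.77 to 0.50, exact p = 0.690). The +/- values lay inside or just below the +/+ range. Bub1 had 56.7, 59.3 and 115 CPM in +/- and 76.8, 128 and 243 CPM at the lowest, median and highest in +/+ embryos. Of the +/- embryos 2 were below every +/+ embryo, and the third was inside their range. The log2 fold change of Bub1 was −0.96 (SE 0.43, 95% interval −1.88 to −0.03, edgeR unadjusted p = 0.0442, adjusted p = 0.9998, exact p = 0.0714). It did not pass the adjustment.

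Of the 10 kinases 0 were called between Ehmt2Cntr +/- and +/+ embryos, and 1 (Bub1) had an unadjusted p under 0.05, where 4.52% of 12646 genes did. edgeR called 0 genes (0%) in this comparison and DESeq2 called 3, none of them a kinase. The smallest p the exact test allows with 84 splits is 0.0238.

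How the kinases varied from embryo to embryo was examined after the mean of each maternal group was removed, over 19 embryos and 45 pairs. Pearson's r ran from −0.71 to 0.68 with a median of 0.04, and 25 pairs were positive and 20 negative. No pair passed a Benjamini-Hochberg adjusted p of 0.05 in the permutation test (100000 resamples, embryos shuffled within their group), and 6 did before adjustment. The lowest r was that of Aurkb and Bub1b (−0.71, Spearman's rho −0.60, permutation p = 0.00297 for r and 0.0176 for rho, adjusted p = 0.0678 and 0.264). It was −0.84 among Ehmt2Cntr and −0.35 among Ehmt2Mat embryos, and −0.49 without the 2 embryos farthest from the median of Aurkb.

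Ttk had the highest values with Aurora kinases. Its r with Aurkc was 0.68 (rho 0.66, permutation p = 0.00311 for r and 0.00399 for rho, adjusted p = 0.0678 and 0.1795) and its r with Aurka was 0.64 (rho 0.58, permutation p = 0.00452 for r and 0.0149 for rho, adjusted p = 0.0678 and 0.264). Without the 2 embryos farthest from the median of Aurkc or of Aurka these were 0.56 and 0.45. Neither passed the adjustment. Without Ehmt2Mat embryo 10 these pairs and that of Aurkb and Bub1b each had an adjusted p of 0.0469, and no other left-out embryo gave a pair past the threshold. Aurka and Nek2, the kinases that were higher in Ehmt2Mat embryos, had an r of 0.11 (rho 0.39, permutation test, adjusted p = 0.883 for r and 0.645 for rho). It was −0.24 among Ehmt2Cntr and 0.64 among Ehmt2Mat embryos. Without the 2 embryos farthest from the median of Aurka the r was 0.04. With 1 control left out it was 0.057 without Ehmt2Cntr embryo 3 and 0.40 without Ehmt2Cntr embryo 7.

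**Figure D4:**
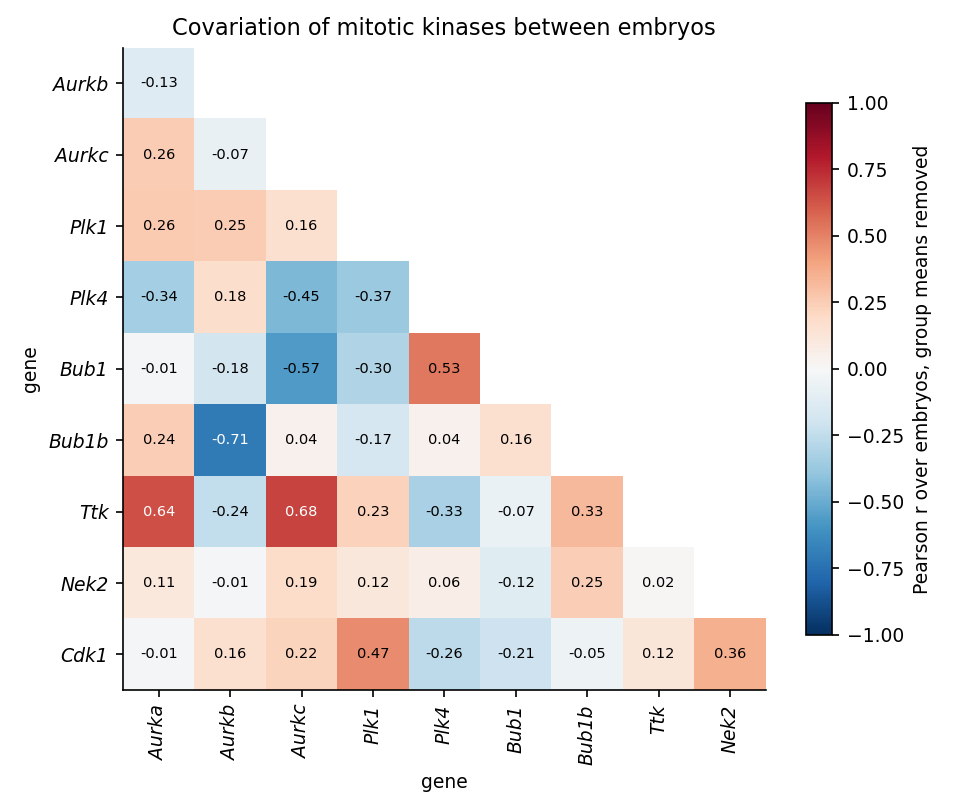
Pearson's r of log2(CPM + 1) between each pair of kinases over 19 embryos with the group means removed (red positive, blue negative). The darkest squares are Aurkb with Bub1b (−0.71), Aurkc with Ttk (0.68) and Aurka with Ttk (0.64), none with an adjusted p under 0.05.

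The genes whose levels followed Aurka most closely within groups were Utp4 (r = 0.81), Mthfd1 (0.81), Spag17 (0.79), Mcm6 (0.79) and Ggt6 (0.78), over 19 embryos that share library depth with each gene. They were picked as the highest r of all genes tested, a choice that by itself gives high values, and no test was run on them. None of them passed the threshold between Ehmt2Mat and Ehmt2Cntr embryos, and their log2 fold changes were between 0.13 (Mcm6, SE 0.15) and 0.87 (Ggt6, SE 1.22). Mcm6, a subunit of the replicative helicase, had 380 ± 61.8 CPM (SD, n = 9) in Ehmt2Cntr and 416 ± 81.2 CPM (SD, n = 10) in Ehmt2Mat embryos. Ggt6 was low, with 1.42 ± 1.67 and 2.59 ± 3.42 CPM, so that its r is uncertain. Ttk was the kinase most like Aurka, at rank 48 of the genes tested, and Plk4 was the least like it (r = −0.34).

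The partners and regulators of the kinases were read from 7 lists with 102 genes, of which 98 passed the filter on low counts. Of these 3 rose (3.06%, where 4.37% of all genes did) and 4 fell (4.08%, where 4.98% of all genes did) in Ehmt2Mat embryos, shares near those of all genes. Their median log2 fold change was −0.18. The lists were chosen with earlier results of these data known, so that the shares are a description. The highest level of a list is given by mean CPM and not per length. No gene of the Aurora cofactors (0 of 9 tested), of the CDK1 partners (0 of 15), of the PLK4 and centriole partners (0 of 8) or of the other mitotic kinases (0 of 15) passed the threshold.

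Over all genes tested the median log2 fold change was −0.04, with 5600 of 11754 fitted higher. Activators and cofactors of the Aurora kinases had a median of 0.26, with 7 of 9 fitted higher. Fitted lower were Ajuba (log2 fold change −0.78, SE 0.40, edgeR adjusted p = 0.246) and Cep192 (−0.35, SE 0.33, edgeR adjusted p = 0.583). Cdca8, which encodes borealin of the chromosomal passenger complex and had the highest level, had 347 ± 98.9 CPM (SD, n = 9) in Ehmt2Cntr and 471 ± 121 CPM (SD, n = 10) in Ehmt2Mat embryos (log2 fold change 0.44, SE 0.18, edgeR adjusted p = 0.122). It shares 114 exon bases with the opposite-strand gene 9930104L06Rik, whose counts reached 15.2% of its own. Tpx2, which activates Aurora A on spindle microtubules and was named after its values were seen, had a log2 fold change of 0.50 (SE 0.17, edgeR adjusted p = 0.0652). Among the CDK1 partners Ccna2, which encodes cyclin A2, had the highest level, with 1306 ± 267 CPM in Ehmt2Cntr and 943 ± 379 CPM in Ehmt2Mat embryos (log2 fold change −0.47, SE 0.20, edgeR adjusted p = 0.160). It shares 510 exon bases with the opposite-strand gene Exosc9, whose counts reached 41.6% of its own, so that its values are uncertain. Btrc, the F-box protein that helps to remove PLK4, had the highest level among the centriole partners and a log2 fold change of −0.77 (SE 0.27, edgeR adjusted p = 0.0754). Pbk led the other mitotic kinases by level (−0.30, SE 0.18, edgeR adjusted p = 0.333).

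In the APC/C list 2 of 19 genes rose (10.5%, where 4.37% of all genes did) and 3 fell (15.8%, where 4.98% of all genes did). Because the list was chosen with earlier results known, nothing is read from these shares. Cdc20, the activator that the spindle checkpoint restrains, had 241, 478 and 751 CPM at the lowest, median and highest in Ehmt2Cntr and 692, 1099 and 1738 CPM in Ehmt2Mat embryos. The ranges overlapped only between 692 and 751 CPM. Its log2 fold change was 1.21 (SE 0.20, edgeR adjusted p = 0.000922), and 1.07 (SE 0.25, adjusted p = 0.0203) without the 5 embryos with oviduct transcripts. Ube2s, the ubiquitin-conjugating enzyme that lengthens chains on APC/C substrates, had 4.68, 43.4 and 54.4 CPM in Ehmt2Cntr and 3.87, 4.98 and 10.6 CPM in Ehmt2Mat embryos. Its log2 fold change was −2.46 (SE 0.41, edgeR adjusted p = 0.000922), and −2.40 (SE 0.45, adjusted p = 0.00636) without those embryos. These were the list genes that passed without them. Cdc20 shares 53 of its 1868 exon bases with the opposite-strand gene Elovl1, whose counts reached 6.34% of its own.

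Among the core subunits Anapc7 rose (log2 fold change 0.81, SE 0.24, edgeR adjusted p = 0.0300), and Anapc11, the RING subunit, and Cdc27, which binds the activators, fell (−0.98, SE 0.26, edgeR adjusted p = 0.0189, and −0.90, SE 0.26, edgeR adjusted p = 0.0278). Anapc7 had 165 ± 45.3 CPM (SD, n = 9) in Ehmt2Cntr and 290 ± 128 CPM (SD, n = 10) in Ehmt2Mat embryos. Anapc11 had 91.3 ± 37 and 46.3 ± 14.9 CPM, and Cdc27 had 325 ± 158 and 174 ± 59.6 CPM. Ube2c, the enzyme that starts the chains, had the highest level of the list, with 1286 ± 326 and 951 ± 129 CPM (log2 fold change −0.44, SE 0.16, edgeR adjusted p = 0.0773). Without the 5 embryos with oviduct transcripts Anapc7 had a log2 fold change of 0.50 (SE 0.26, adjusted p = 0.327), Anapc11 of −0.93 (SE 0.27, adjusted p = 0.0625) and Cdc27 of −0.89 (SE 0.34, adjusted p = 0.160). Between +/- embryos alone, where no list gene passed the threshold, the log2 fold change was −0.20 (SE 0.34) for Cdc27 and 0.74 (SE 0.30) for Cdc20. It was −2.67 (SE 0.74) for Ube2s, −0.84 (SE 0.48) for Anapc11 and 0.63 (SE 0.43) for Anapc7.

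Of the 10 other spindle checkpoint genes 1 rose (10%, where 4.37% of all genes did). This was Mad2l1bp, whose product helps TRIP13 to take MAD2 out of the checkpoint complex. Its level was 206, 353 and 743 CPM at the lowest, median and highest in Ehmt2Cntr and 445, 821 and 1319 CPM in Ehmt2Mat embryos (log2 fold change 0.94, SE 0.26, edgeR adjusted p = 0.0250). Without the 5 embryos with oviduct transcripts the log2 fold change was 0.70 (SE 0.31, adjusted p = 0.242), and between +/- embryos alone it was 0.71 (SE 0.37). The ranges overlapped. Of 22 genes of opposing phosphatases, their regulators and partners, 1 fell (4.55%, where 4.98% of all genes did). This was Ppp2ca, a catalytic subunit of PP2A, with 374 ± 94 CPM (SD, n = 9) in Ehmt2Cntr and 205 ± 115 CPM (SD, n = 10) in Ehmt2Mat embryos (log2 fold change −0.87, SE 0.24, edgeR adjusted p = 0.0252). Its log2 fold change was −0.62 (SE 0.26, adjusted p = 0.206) without those embryos and −0.44 (SE 0.44) between +/- embryos alone. The phosphatase list had a median log2 fold change of −0.53, where that of all genes tested was −0.04. In this list 4 of 22 genes were fitted higher, and of all genes tested 5600 of 11754. The difference was not tested. Ppp6r3, a regulatory subunit of PP6, which acts on Aurora A, had the highest level of that list (−0.72, SE 0.26, edgeR adjusted p = 0.0769). Ppp2ca shares 2985 of its 7490 exon bases with the opposite-strand gene 9430098F02Rik, whose counts were at most 2.38% of its own.

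**Figure D5:**
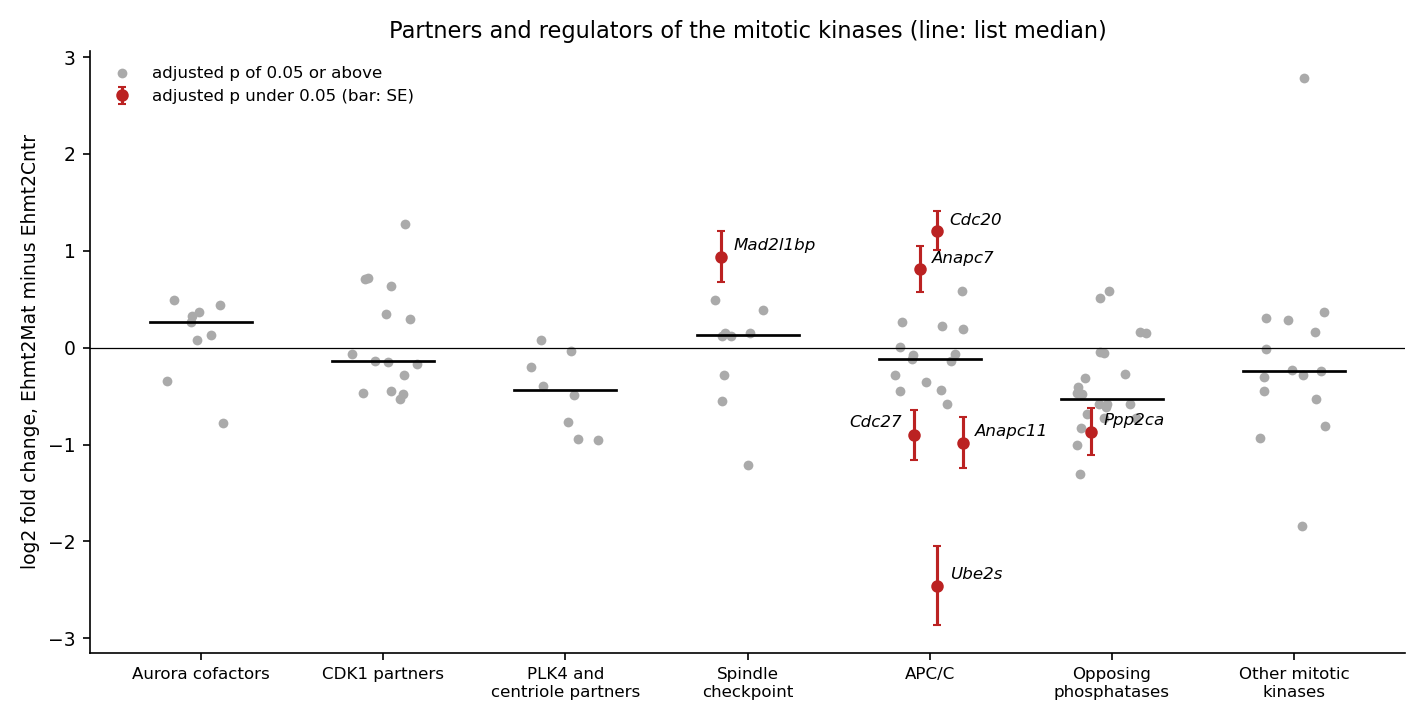
Log2 fold change, Ehmt2Mat minus Ehmt2Cntr, of 98 partners and regulators of the kinases in 7 lists, 1 point per gene, with a line at each list's median and SE bars for genes with an adjusted p under 0.05. Cdc20 (1.21), Mad2l1bp (0.94) and Anapc7 (0.81) stand above 0, and Ube2s (−2.46), Anapc11 (−0.98), Cdc27 (−0.90) and Ppp2ca (−0.87) below.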

How the data were processed

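Single 8C embryos were lysed and their cDNA, which has a 3′ bias, was read in single-end runs of 50 bp (HiSeq1500 in the labels, HiSeq4000 in the methods). The authors deposited raw counts per gene, without normalization, and the file headers record featureCounts 1.5.0 on the exons of Ensembl release 82 (GRCm38) with a minimum overlap of 10 bases, without a strand setting, and with reads counted for every gene and every alignment. The submitters' processing notes name TopHat2, whose version is not given in the sources used here.

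The 10 kinases and the lists were chosen with earlier results of these data known. edgeR 4.0.16 (R 4.3.3) was run over all genes with filterByExpr, TMM, the quasi-likelihood test and Benjamini-Hochberg adjustment at 0.05, on the embryos compared only. Single kinases were compared by exact permutation tests on log2(CPM + 1), without adjustment over the kinases, and pairs with adjustment over 45 pairs. Named are the kinases, Ehmt2, of each list the genes past the threshold and the one with the highest mean CPM, and the 5 genes most like Aurka. Also named are Tpx2 and the Aurora cofactors that were fitted lower. The alternatives tried were DESeq2 1.42.0, 2 other normalizations, other count filters, a replicate block, thinned counts, +/- embryos only, a log2 fold minimum of 1, a pseudocount of 0.1, removal of the log2 library total, 1 fit over all embryos, each embryo left out and, added after the data were seen, no embryos over 300 CPM of oviduct markers. The scripts were tested on simulated counts. No embryos had identical counts. Whether embryos share a mother is not given, so p-values measure the spread between these embryos.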

Additional observations from a re-analysis of the deposited data

Results flagged for a closer look

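Aurka in Ehmt2Mat embryo 9 stood apart from the other Ehmt2Mat embryos, at 1288 CPM with the next embryo at 965 CPM and the lowest at 614 CPM. Without this embryo the log2 fold change of Aurka was 1.27. Plk4 in Ehmt2Cntr embryo 9 stood apart at 86.6 CPM, with the next embryo at 51.8 CPM and the lowest at 21 CPM. Both were flagged because the gap to the nearest embryo exceeded Dixon's 95% limit for the share of the group's range. Of 48 groups of embryos examined (24 genes in each maternal group) 2 were flagged, and chance flags about 1 in 20.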

How the results depend on the processing

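For Ehmt2Mat against Ehmt2Cntr, 1099 genes, 2 kinases and 7 list genes were past the threshold. DESeq2 called 1775 genes (828 higher, 947 lower) and 18 list genes, and added Bub1. A minimum log2 fold change of 1 left 667 genes, 1 kinase (Aurka) and 2 list genes, and at least 10 counts in every embryo gave 14 list genes. Without the 5 embryos with oviduct transcripts there were 465 genes, 2 kinases (Aurka and Bub1b, not Nek2) and 2 list genes. The zygotic +/- embryos alone (5 and 3) gave 1 gene, 0 kinases and 0 list genes. The log2 fold change of Ppp6r3 was then 0.022, of Cdc27 −0.20, of Ppp2ca −0.44, of Cdc20 0.74 and of Bub1 −0.11. That of Ube2s was −2.67, of Anapc11 −0.84, of Anapc7 0.63 and of Mad2l1bp 0.71. A fold minimum lowers these counts by construction, and the cause of the other changes was not tested. Leaving out 1 embryo gave 884 to 1262 genes, 2 to 3 kinases and 5 to 12 list genes, the 12 without Ehmt2Mat embryo 10. Bub1 was added without that embryo and Bub1b without Ehmt2Cntr embryo 10. Across these 19 fits Aurka stayed between 1.27 and 1.47 and Nek2 between 0.78 and 1.01 (log2), both past the threshold in each. Uncalled kinases turned in direction: Aurkb ran from −0.22 to 0.13 and Plk4 from −0.18 to 0.12, both positive without Ehmt2Cntr embryo 9 and between +/- embryos alone (0.043 and 0.16), and Plk4 was 0.086 without the embryos with oviduct transcripts and 0.050 with the replicate block. Anapc7 lost its call without Ehmt2Cntr embryo 7 or 8 or Ehmt2Mat embryo 3 or 5 (0.68 to 0.78), Cdc27 without Ehmt2Cntr embryo 5 or 8 (−0.82 and −0.71), and Ppp2ca without Ehmt2Cntr embryo 5 (−0.78). Upper-quartile, RLE, no filter and thinning kept the 3 counts within 1.5 times.

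Embryos of the 2 groups share only a number: deviations of those with the same number correlated between −0.156 and 0.0856. With the number as a replicate block over the 9 numbers in both groups, 693 genes, 2 kinases and 6 list genes (4 higher, 2 lower) were called. Anapc11 (−0.91, adjusted p = 0.0784) and Cdc27 (−0.83, adjusted p = 0.108) lost their calls under the block. No paired analysis was possible for the zygotic comparisons because those groups share no numbers.

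Both zygotic comparisons kept 0 kinases in every alternative and with any embryo left out. Their uncalled fold changes (log2) turned in direction as follows. For Ehmt2M/Z against Ehmt2M/+, Cdk1 was −0.0057 with RLE and −0.0057 with DESeq2, and without the embryos with oviduct transcripts Aurkc was 0.32, Bub1 −0.088, Nek2 0.18 and Cdk1 −0.10. With an embryo left out Plk1 ran from −0.43 to 0.041, Bub1 from −0.019 to 0.44, Nek2 from −0.22 to 0.062 and Cdk1 from −0.16 to 0.12. For Ehmt2Cntr +/- against +/+, Aurka ran from −0.26 to 0.017, Aurkb from −0.35 to 0.30, Aurkc from −0.53 to 1.00, Plk4 from −0.55 to 0.016, Bub1b from −0.58 to 0.55 and Nek2 from −0.23 to 0.40. Pairs past the threshold numbered 0 in every alternative, and 0 to 3 with an embryo left out, the 3 without Ehmt2Mat embryo 10. Depth limits Aurkc most, with as few as 2 counts in an embryo.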
